A study of Rattus norvegicus with 84 samples.

Results

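Interferon-induced antiviral genes are genes that most cells switch on after they sense interferon or foreign nucleic acid, and 9 of them were described here across the hippocampus of young and middle-aged rats: Ifit2, Ifit3, Ifi44, Isg15, Irf7, Mx1, Mx2, Usp18 and Bst2. They were listed by gene symbol, and the list was chosen with earlier results of these data known. All 9 had a row in each of the 3 subregion tables, which held 15553 genes for CA1, 15706 for CA3 and 15374 for the dentate gyrus (DG), and all 9 passed the filter on low values in each. The samples came from male F344 rats, an inbred strain, of which 16 were 12 months old and 12 were 5 months old. From 1 hemisphere of each of the 28 rats, CA1, CA3 and the DG were dissected and sequenced as polyA RNA, 84 libraries in all. No group received a treatment or carried an engineered allele, per the labels. The study compared the ages within each subregion.

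In the interferon pathway, sensors of foreign RNA and DNA lead to the release of interferon, which binds receptors on the same and on neighbouring cells. The receptors act through the kinases Jak1, Jak2 and Tyk2 on transcription factors that bind the interferon-stimulated response element (ISRE) in the promoters of the antiviral genes. In the brain, microglia, the resident immune cells, are a main site of this response, and astrocytes, endothelial cells and neurons can also mount it.

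Promoter sequences were searched for this element. RefSeq promoters of the GRCr8 build, a later build than the rn6 that the processing notes name, were matched by symbol for 5 of the 9 genes. The ISRE core was searched as the letters GAAANNGAAA on both strands, overlapping matches included, from 250 bases before to 50 bases after each start. It was found in 4 of the 5, against 3.92% of the 33469 promoters of the same length. The 150 bases before the start are shown for the 5 genes, 5′ to 3′ on the gene's own strand, with capitals marking the matches.
Ifit3, chr1:241527176-241527325, plus strand: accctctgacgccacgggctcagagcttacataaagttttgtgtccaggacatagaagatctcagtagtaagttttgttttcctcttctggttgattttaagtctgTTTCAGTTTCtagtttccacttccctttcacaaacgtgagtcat
Ifi44, chr2:243303841-243303990, minus strand: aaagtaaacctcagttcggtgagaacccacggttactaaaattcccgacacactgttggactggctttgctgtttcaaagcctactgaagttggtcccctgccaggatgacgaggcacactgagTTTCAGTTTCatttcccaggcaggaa
Irf7, chr1:205800024-205800173, minus strand: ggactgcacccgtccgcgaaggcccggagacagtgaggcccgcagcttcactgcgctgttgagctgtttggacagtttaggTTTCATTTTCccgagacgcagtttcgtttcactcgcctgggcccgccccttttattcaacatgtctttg
Bst2, chr16:18254968-18255117, minus strand: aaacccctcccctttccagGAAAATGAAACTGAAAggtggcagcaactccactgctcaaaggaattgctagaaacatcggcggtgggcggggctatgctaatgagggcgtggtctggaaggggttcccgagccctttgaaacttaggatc
Mx1, chr11:50294607-50294756, minus strand: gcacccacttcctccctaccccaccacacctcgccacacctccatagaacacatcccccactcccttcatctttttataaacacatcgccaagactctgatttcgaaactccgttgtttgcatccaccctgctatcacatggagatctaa
Bst2 held 2 overlapping matches, and Ifi44 held a further match after its start that lies outside the stretch shown. In Mx1 these letters were not in the window. A match is a description of the letters and not of binding.

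Recovered whole reads ranged from 14.4 M to 23.4 M per library. The dissections were checked with subregion markers, in RPM (recovered reads of a gene per M recovered reads of the library): all 5 CA1, 4 CA3 and 4 DG markers had their highest median in their own subregion, and in 28 of 28 rats each set as a whole was highest there. The animal numbers in the titles fall into 2 runs, the first with 10 rats of 12 months and 6 of 5 months and the second with 6 and 6. In the first run the numbers are consecutive, with all 5-month rats before all 12-month rats. In the second the ages also stand in separate stretches of numbers, with a gap between. So within each run age cannot be told apart from the order of the numbers, and in the second also not from that gap. The labels do not call the runs batches.

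A single rat stood apart and is described first, because many results below are given with and without it. This was replicate 10 of the 12-month rats. In CA1 it held 1071 normalized counts of Mx1, a dynamin-like GTPase that blocks the replication of RNA viruses, and the highest of the other 27 rats held 60.7. The same rat held 711 normalized counts of Mx1 in CA3 and 112 in the DG, and the highest of the other 27 held 106 and 51.1 there. Its 984 Mx1 reads in CA1 correspond to 62.5 RPM, with a 95% Clopper-Pearson interval of 58.7 to 66.6 that covers counting error only. So the distance from the other rats was far beyond counting error in CA1.

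The other 8 genes were also high in CA1 and CA3 of that rat. In CA1 it was the highest of 28 for 8 of the 9 genes, the exception being Ifit3, in which it was second at 76.2 against 76.5 normalized counts in the top rat. Its CA1 values were 6.55 times the median of the other 15 rats of 12 months for Bst2, 3.09 times for Isg15, 2.94 times for Usp18 and 2.36 times for Irf7. In CA3 it was the highest for 8 of 9, with ratios of 3.79 for Bst2, 2.64 for Irf7 and 2.02 for Isg15. In the DG it was the highest for Mx1 alone and lay below that median for 4 of the 9 genes. The elevation was therefore seen in CA1 and CA3 across the genes and in the DG mainly in Mx1, at 3.87 times the median.

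Genes outside the 9 were high in the same libraries. Of all genes tested, this rat was the highest of 28 for 9.02% in CA1, 6.88% in CA3 and 3.55% in DG tissue. Of the further interferon-stimulated genes listed for this work, it was the highest for 33 of the 45 tested in CA1, for 30 of 43 in CA3 and for 19 of 44 in DG tissue. For genes of MHC class I presentation, which shows peptides to T cells, the counts were 10 of 12, 11 of 12 and 6 of 12 in the same order. Of 15 microglial markers, 13 had a row in each table (all but Itgam and Fcrls), none of these at a median of 0. Their summed level in this rat was 44396 normalized counts in CA1, and it lay between 8552 and 11971 in the other 15 rats of 12 months and between 7553 and 9714 in the 12 rats of 5 months. In CA3 the sum was 32416, against 8190 to 12859 in the other rats of 12 months and 6625 to 8467 in the rats of 5 months. In the DG the sum was 11954, against 5699 to 8649 and 5754 to 8944 in the same groups. Summed markers of neurons, endothelial cells and mural cells in this rat were 0.838 to 1.17 times the median of the other rats of 12 months over the 3 subregions, and those of astrocytes 1.09 to 1.14 times. Markers of neighbouring tissue were also apart in this rat. In its CA1 library the DG markers summed to 0.109 times that median and the CA3 markers to 0.772 times, each the lowest of 28. In its CA3 library the CA1 markers summed to 0.442 times, second lowest of 28, and choroid plexus markers were at 1.75 to 2.87 times over the 3 subregions, at ranks 6 to 8 of 28. Their part in the values of this rat was not tested.

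Blood cells were checked in the same way. Of 13 markers of T and natural killer cells, 4 had a row in each table (Cd3e, Cd4, Lck and Ptprc), and their sum in this rat was 4.14 times the median of the other rats of 12 months in CA1, 3.74 times in CA3 and 2.11 times in DG tissue. This rat was the highest of 28 for only 2 of these 4 genes in each subregion. Cd4 and Ptprc are also expressed by microglia. Cd8a, Cd3d, Cd3g, Nkg7, Gzmb and Prf1 had no row in the tables used here. Of 6 B cell markers only Blnk, which microglia also express, had a row. Of 8 neutrophil and monocyte markers only Ly6g6d had a row, in CA1 and CA3. The summed markers of border-associated macrophages were 0.703 to 1.06 times that median. In bulk tissue, more cells of a type and more RNA per cell cannot be told apart, and the part of microglia in the values of this rat was not tested.

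**Figure D1:**
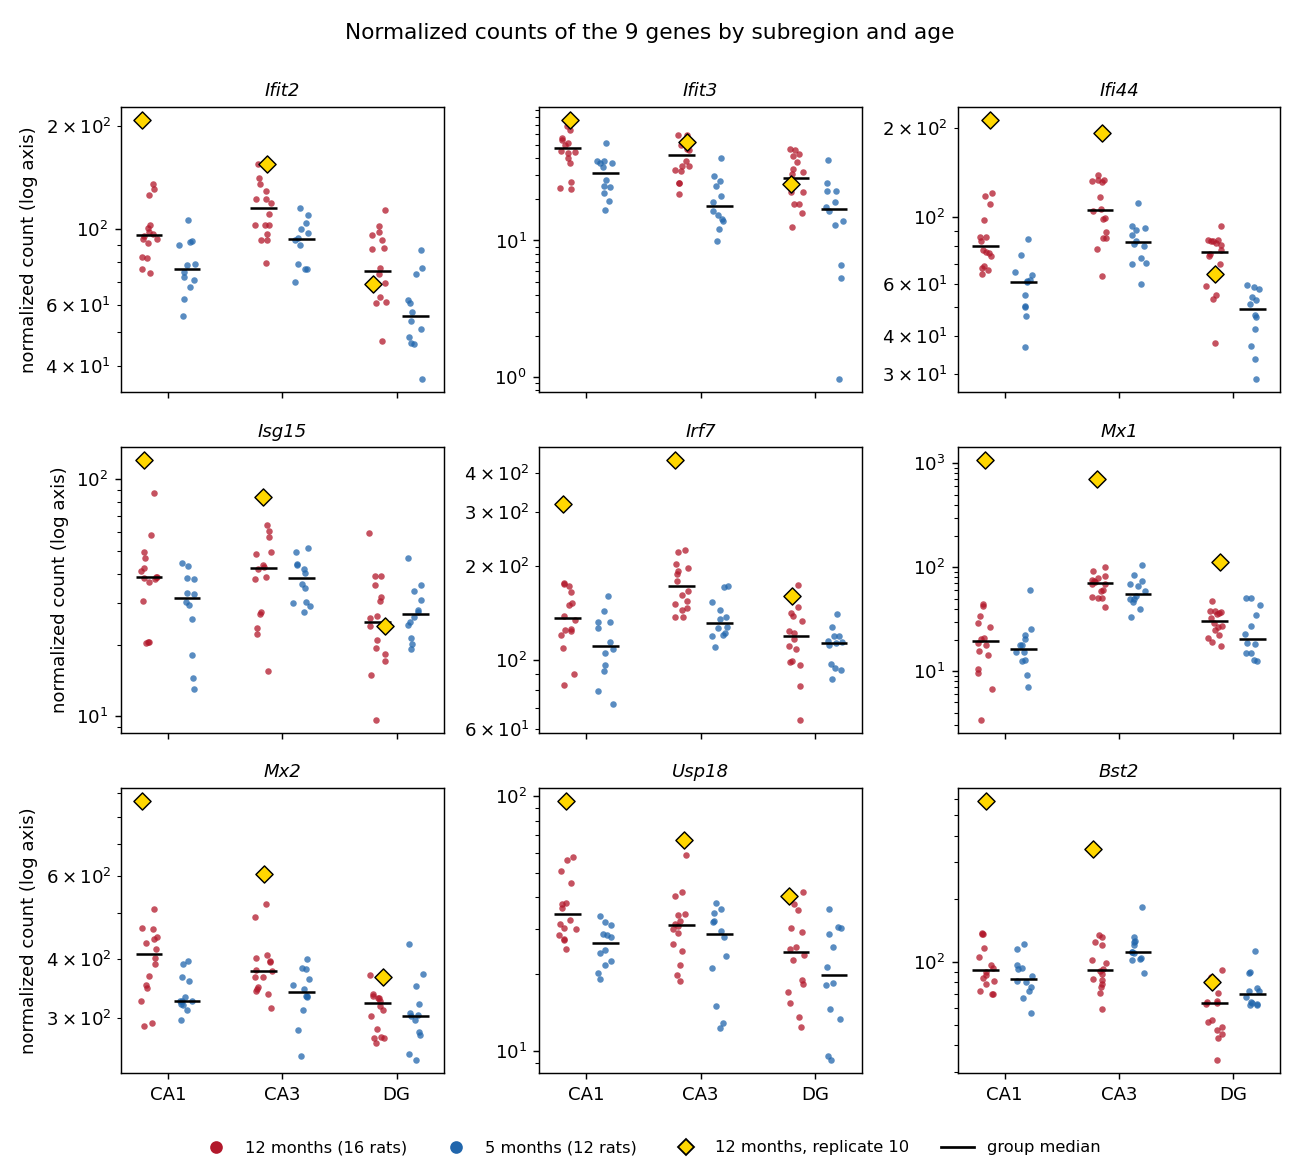
Normalized counts of each gene (log axis) in CA1, CA3 and the DG, with 1 point per rat, 12 months left of 5 months, and a line at each group's median. The diamond marks replicate 10 of the 12-month rats, which reaches 1071 for Mx1 in CA1, where the other 27 rats lie at or below 60.7.

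Levels across subregions are described in RPM, with no test, because each subregion was scaled on its own. The DG had the lowest median of the 3 subregions for 8 of the 9 genes, and Mx1 was the exception. Mx1 was highest in CA3 in 27 of 28 rats. Its median over the 28 rats was 3.47 RPM in CA3 (range 1.75 to 39.1), 1.59 in the DG (0.721 to 6.58) and 0.993 in CA1 (0.191 to 62.5). CA3 exceeded the DG in 28 of 28 rats and CA1 in 27 of 28, while CA1 exceeded the DG in 8 of 28. So for Mx1 CA3 stood clear of both other subregions in nearly every rat.

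The other genes were closer together. Bst2, also called tetherin, which holds budding virus particles at the cell surface, was lowest in the DG in 25 of 28 rats, with medians of 3.72 RPM in DG tissue, 5.03 in CA1 and 5.57 in CA3. CA3 exceeded CA1 for Bst2 in 17 of 28 rats, so those neighbours in the order were not separated rat by rat. Ifi44 was highest in CA3 in 22 of 28 rats, at a median of 4.81 RPM, against 3.91 in CA1 and 3.39 in the DG. Irf7 was highest in CA3 in 20 of 28 rats, at 8.32 against 7.24 in CA1 and 6.51 in the DG, and CA1 exceeded the DG in 14 of 28.

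Ifit3 and Usp18 were highest in CA1, each in 18 of 28 rats. The median of Ifit3 was 2.15 RPM in CA1, 1.67 in CA3 and 1.30 in DG tissue. Usp18 had medians of 1.70 in CA1, 1.67 in CA3 and 1.35 in DG tissue. Mx2 was highest in CA1 in 16 of 28 rats, with medians of 20.9 in CA1, 19.6 in CA3 and 17.7 in DG tissue. For Ifit2 and Isg15 CA3 was highest in 15 of 28 rats and CA1 in 10 and 11, so no order of CA1 and CA3 held across rats. Their medians were 5.45 and 2.11 RPM in CA3, 5.12 and 2.18 in CA1, and 4.01 and 1.48 in DG tissue.

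With age, 6 of the 9 genes rose in the mean over the 3 subregions and none fell: Ifit2, Ifit3, Ifi44, Irf7, Mx2 and Usp18. Isg15, Mx1 and Bst2 did not pass the test. Ages were compared with limma on log2(normalized count + 1), a scale that understates the change of low values, with Benjamini-Hochberg adjustment across every gene tested in that comparison. In the mean over subregions 25.4% of the 14291 genes tested rose and 24.6% fell, so a rise was common among all genes. The median log2 change was 0.39 over the 9 genes and 0.01 over all genes tested.

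By subregion, 4 of the 9 genes rose in CA1, where 12.4% of all genes tested rose and 12.8% fell. In CA3 5 of the 9 rose, beside 10.9% of all genes rising and 10.8% falling. In the DG 3 of the 9 rose, beside 18.5% of all genes rising and 18.5% falling. None of the 9 fell in any subregion. Ifit2, Ifit3 and Ifi44 rose in all 3 subregions. The median log2 change over the 9 genes was 0.41 in CA1, 0.36 in CA3 and 0.28 in DG tissue, and over all genes 0.00, 0.00 and 0.01. Without replicate 10 of the 12-month rats, 4 genes rose in CA1, 4 in CA3, 3 in the DG and 6 in the mean over subregions, and 1, Bst2, fell in CA3. The shares of all genes given above are from the fits with all rats, so they are not the background of these counts. The median log2 change over the 9 genes was then 0.33 in CA1, 0.29 in CA3, 0.23 in the DG and 0.22 in the mean over subregions.

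Microglial markers moved with age as well. Of the 13 tested, 5 rose in CA1, 9 in CA3, 4 in the DG and 7 in the mean over subregions, and none fell. Of all genes tested with all rats, 12.4%, 10.9%, 18.5% and 25.4% rose in the same order. With replicate 10 left out, 6 rose in CA1, 11 in CA3, 3 in the DG and 9 in the mean over subregions. The sum of the 13 lay, apart from replicate 10, between 8552 and 11971 normalized counts at 12 months and between 7553 and 9714 at 5 months in CA1, so the ages overlapped. In CA3, again apart from replicate 10, it lay between 8190 and 12859 (median 8923) at 12 months and between 6625 and 8467 (median 7751) at 5 months, a narrow overlap. In the DG the medians were 6516 at 12 months and 6703 at 5 months. Their part in the age changes of the 9 genes was not tested.

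The IFIT proteins bind viral RNA and restrain its translation, and Ifit3 acts with other IFIT proteins. Ifit3 had the largest change of the 9 genes in the mean over subregions, with a log2 change of 0.89 ± 0.18 (SE, adjusted p = 1.85e-04 in limma, 28 rats). In CA3 Ifit3 ranged from 21.9 to 59.7 normalized counts with a median of 42.1 in the 16 rats of 12 months, and from 9.86 to 40.3 with a median of 17.8 in the 12 rats of 5 months. All 16 rats of 12 months exceeded the median of the 5-month rats there, and 8 exceeded every one of them. The change in CA3 was 2.06-fold, with a log2 change of 1.04 ± 0.18 (limma, adjusted p = 4.60e-04).

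In the DG, Ifit3 ranged from 12.6 to 46.7 with a median of 28.8 normalized counts at 12 months, and from 0.960 to 39.0 with a median of 16.9 at 5 months. The lowest value was a single read in 1 rat of 5 months, and the groups overlapped. The log2 change was 0.99 ± 0.31 (limma, adjusted p = 0.0136), and it lay between 0.73 and 1.13 when each rat was left out in turn. Within the runs it was 0.34 ± 0.30 in the first, which did not pass, and 1.77 ± 0.50 in the second, so its size differed between them. In CA1 Ifit3 had a median of 47.7 (24.0 to 76.5) at 12 months and of 31.4 (16.7 to 52.3) at 5 months, a log2 change of 0.63 ± 0.19 (limma, adjusted p = 0.0156). The ages overlapped there too, with 13 of 16 rats of 12 months above the median of the 5-month rats. The log2 changes in the first and second run were 0.52 and 0.77 in CA1, and 0.91 and 1.24 in CA3.

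Ifit2, which neighbours Ifit3 in the RefSeq annotation and is related to it, rose by a smaller amount. Its median in CA1 was 96.2 normalized counts (74.5 to 208) at 12 months and 76.6 (55.8 to 106) at 5 months, with a log2 change of 0.39 ± 0.12 (limma, adjusted p = 0.0207). In CA3 the medians were 115 (79.6 to 155) at 12 months and 93.5 (70.1 to 115) at 5 months, with a log2 change of 0.32 ± 0.10 (limma, adjusted p = 0.0183). In the DG they were 75.3 (47.1 to 114) and 55.8 (36.5 to 86.7) in the same order of ages, with a log2 change of 0.44 ± 0.13 (limma, adjusted p = 0.00897). In each subregion 13 to 15 of the 16 rats of 12 months exceeded the median of the 5-month rats, and the groups overlapped. By subregion the log2 change of Ifit2 lay between 0.31 and 0.44 in the first run and between 0.34 and 0.46 in the second. No single subregion was called within either run. In the mean over subregions Ifit2 was called in both runs, at 0.39 in the first and 0.38 in the second.

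Ifi44, an interferon-induced cytoplasmic protein, rose most clearly in the DG. Its DG values had a median of 76.6 normalized counts (37.9 to 93.9) at 12 months and of 49.2 (28.7 to 59.5) at 5 months. There 12 of 16 rats of 12 months exceeded every rat of 5 months. The log2 change in the DG was 0.60 ± 0.13 (limma, adjusted p = 9.50e-04). In CA1 Ifi44 had medians of 80.5 (64.4 to 212) at 12 months and 61.0 (36.8 to 84.6) at 5 months, with a log2 change of 0.60 ± 0.15 (limma, adjusted p = 0.00497), and all 16 rats of 12 months exceeded the 5-month median. In CA3 the medians were 106 (63.6 to 192) at 12 months and 82.6 (59.8 to 112) at 5 months, with a log2 change of 0.40 ± 0.12 (limma, adjusted p = 0.0206). Without replicate 10 of the 12-month rats the log2 change was 0.51 ± 0.12 in CA1 and 0.34 ± 0.11 in CA3, both still called. Ifi44 had log2 changes of 0.33 in CA1, 0.25 in CA3 and 0.40 in DG tissue within the first run, none of which passed, and of 0.93, 0.60 and 0.85 within the second, all of which did.

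Irf7, the transcription factor that amplifies the production of type I interferon, rose in CA3. It had a median of 173 normalized counts (137 to 439) at 12 months and of 132 (110 to 173) at 5 months, and all 16 rats of 12 months exceeded the 5-month median. The log2 change in CA3 was 0.43 ± 0.12 with all rats (limma, adjusted p = 0.0129) and 0.34 ± 0.09 without replicate 10 of the 12-month rats. In CA1 the medians were 136 (83.1 to 317) at 12 months and 111 (72.0 to 161) at 5 months, with a log2 change of 0.34 ± 0.15 that did not pass (limma, adjusted p = 0.0852). In the DG they were 120 (64.2 to 174) and 113 (86.5 to 140), with a log2 change of 0.08 ± 0.12 (limma, adjusted p = 0.596). The DG groups overlapped widely, with 9 of 16 rats of 12 months above the 5-month median. Within the first and second run the log2 change of Irf7 was 0.48 and 0.35 in CA3, neither called, and 0.26 and 0.48 in CA1, the second called.

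Isg15 encodes a ubiquitin-like protein that is attached to other proteins after interferon, and Usp18 removes it and also damps signalling from the interferon receptor. Usp18 rose in CA1, with a median of 34.5 normalized counts (25.2 to 95.8) at 12 months and of 26.5 (19.2 to 33.8) at 5 months. There 15 of 16 rats of 12 months exceeded the 5-month median, and the log2 change was 0.54 ± 0.16 (limma, adjusted p = 0.0170). Without replicate 10 of the 12-month rats that change was 0.45 ± 0.14, still called. In CA3 Usp18 had medians of 31.2 and 28.7 at 12 and 5 months and in the DG of 24.6 and 19.9, with log2 changes of 0.36 ± 0.19 and 0.28 ± 0.21 that did not pass. Isg15 had a median of 38.8 normalized counts (20.4 to 120) at 12 months and of 31.6 (up to 44.3) at 5 months in CA1, with a log2 change of 0.51 ± 0.23 (limma, adjusted p = 0.0973). Its log2 changes were 0.07 ± 0.19 in CA3 and -0.12 ± 0.19 in the DG, where 6 of 16 rats of 12 months exceeded the 5-month median. Isg15 was not called in any subregion in limma or edgeR, and DESeq2 called it higher in CA1. Within the runs, first and second, the log2 change of Usp18 in CA1 was 0.41 and 0.76, that of Isg15 in CA1 0.71 and 0.45, and that of Isg15 in the DG -0.46 and 0.41.

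Of the Mx genes, Mx2 rose by a small amount in CA3, and Mx1 did not pass in any subregion. Mx2 had a median of 379 normalized counts (316 to 607) at 12 months and of 340 (250 at the lowest) at 5 months in CA3, with a log2 change of 0.23 ± 0.08 (limma, adjusted p = 0.0475). That call was lost when any of 17 of the 28 rats was left out, replicate 10 of the 12-month rats among them, while the log2 change stayed between 0.18 and 0.25. In CA1 Mx2 had medians of 411 (289 to 866) and 326 (297 to 397) at 12 and 5 months, a log2 change of 0.28 ± 0.11 that did not pass (limma, adjusted p = 0.0521), and 9 of 16 rats of 12 months exceeded every rat of 5 months. Leaving out any of 8 rats brought that CA1 change past the threshold, and edgeR and DESeq2 called it with all rats. Within the first and second run the change of Mx2 was 0.29 and 0.26 in CA1 and 0.13 and 0.37 in CA3, with calls in the second. In the DG the log2 change of Mx2 was 0.03 ± 0.08 (limma, adjusted p = 0.765).

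Mx1 in CA1 depended on the rat that stood apart. Its median there was 19.5 normalized counts (3.42 to 1071) at 12 months and 16.5 (7.01 to 60.7) at 5 months. The log2 change was 0.41 ± 0.49 with all 28 rats (limma, adjusted p = 0.556) and 0.05 ± 0.31 without replicate 10 of the 12-month rats. On the recovered reads, edgeR put the CA1 change at 2.11 on the log2 scale with that rat, past the threshold, and at 0.07 without it, not past it. DESeq2, which by default replaces outlying counts, put the CA1 change at 0.07 ± 0.31 with all 28 rats, not past the threshold. In CA3 the log2 change was 0.42 ± 0.26 with it and 0.20 ± 0.15 without it, and in the DG 0.40 ± 0.24 and 0.28 ± 0.21, none of them past the threshold in limma.

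Bst2, like Isg15, had changes of either sign over the subregions. In CA1 it had a median of 91.8 normalized counts (70.4 to 588) at 12 months and of 83.3 (57.3 to 122) at 5 months, with a log2 change of 0.32 ± 0.21 (limma, adjusted p = 0.262). In CA3 the medians were 91.8 (59.6 to 344) and 111 (88.3 to 183) in the same order, with a log2 change of -0.20 ± 0.16 (limma, adjusted p = 0.413), and in the DG 63.5 (34.1 to 91.7) and 70.3 (62.3 to 113), with -0.29 ± 0.13 (limma, adjusted p = 0.0764). In both CA3 and the DG 5 of 16 rats of 12 months exceeded the 5-month median. Without replicate 10 of the 12-month rats the log2 changes were 0.16 ± 0.12 in CA1, -0.32 ± 0.11 in CA3 and -0.32 ± 0.13 in DG tissue, of which that in CA3 passed the threshold. Within the first and second run they were 0.63 and -0.09 in CA1, -0.21 and -0.25 in CA3, and -0.14 and -0.46 in DG tissue, of which the last passed.

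**Figure D2:**
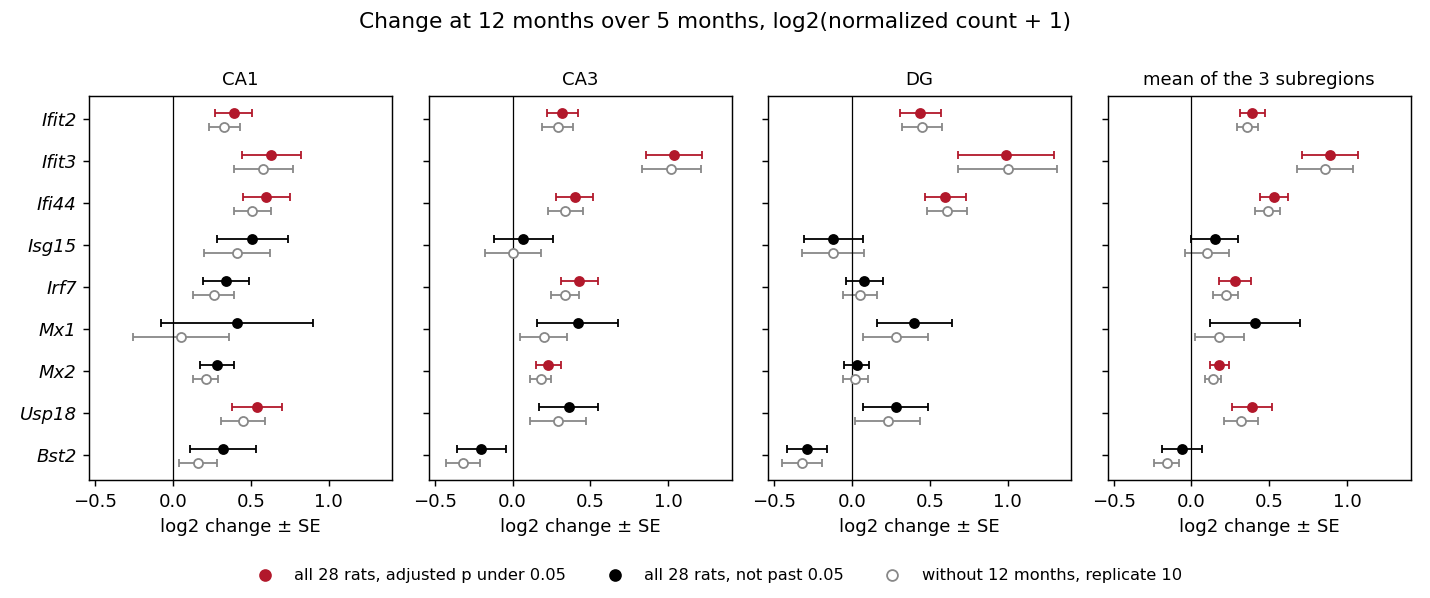
Log2 change of each gene at 12 months over 5 months, with its standard error, in CA1, CA3, the DG and the mean over the 3 subregions. Filled points use all 28 rats (red where the adjusted p is under 0.05) and open points leave out replicate 10 of the 12-month rats, which moves Mx1 in CA1 to 0.05.

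Whether the age change itself differed between subregions was tested on the difference of log2 values within each rat. None of the 9 genes passed for the DG minus CA1, the DG minus CA3 or CA1 minus CA3 in limma, beside 0.607%, 2.73% and 0% of all genes tested. At an unadjusted p under 0.05 there were 3 genes for the DG minus CA1 (Isg15, Irf7 and Bst2), 1 for the DG minus CA3 (Irf7) and 1 for CA1 minus CA3 (Bst2). For Bst2 the age change was smaller in the DG than in CA1 by a log2 difference of -0.61 ± 0.21 (limma, adjusted p = 0.132) and larger in CA1 than in CA3 by 0.52 ± 0.16 (limma, adjusted p = 0.233). For Irf7 the differences were -0.26 ± 0.12 for the DG minus CA1 and -0.34 ± 0.14 for the DG minus CA3. So the lists of genes called in each subregion differ, but no difference between subregions was called for any of the 9.

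Within the 2 runs of animal numbers, the changes of most genes kept their sign and differed in size. In the mean over subregions, 8 of the 9 genes had a positive log2 change in both runs, and Bst2 had 0.09 in the first and -0.27 in the second. The log2 change of Ifit3 was 0.59 in the first run and 1.26 within the second, that of Ifi44 0.33 and 0.79, and that of Usp18 0.24 and 0.61. Ifit2 had 0.39 in the first and 0.38 in the second. In the first run 1 of the 9 genes passed, Ifit2, and in the second 8 did, with Isg15 rising and Bst2 falling besides the 6 called in the pooled fit. Over all genes the first run gave 2628 calls and the second 8304 of 14291, so the calls differed between runs for the whole table as well. Within each run, age cannot be told apart from the separate stretches of animal numbers that hold the ages.

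The rest of the pathway was described by lists of named genes, with counts and medians of the mean over subregions. In that mean, with all rats, 25.4% of all genes tested rose and 24.6% fell. None of 12 interferon genes, including Ifnb1 and Ifng, had a row in the tables used here. Of 11 tested genes of the receptors and the Jak-Stat relay, 7 rose and 0 fell, with a median log2 change of 0.13 beside 0.01 for all genes. They included Jak2, a receptor kinase, at 0.17 ± 0.04 (limma, adjusted p = 0.00107), Il10rb, a receptor chain shared by interleukin 10 and lambda interferon, at 0.32 ± 0.10, and Ifnar2, a chain of the type I interferon receptor, at 0.14 ± 0.05. With replicate 10 of the 12-month rats left out, 8 rose and 1 fell.

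Among 15 tested sensors and the factors that switch on interferon, 4 rose and 1 fell, with a median log2 change of 0.08. The 4 of 15 is close to the 25.4% of all genes that rose. The endosomal RNA receptors Tlr7 and Tlr3 rose by log2 changes of 0.93 ± 0.13 (limma, adjusted p = 6.70e-06) and 0.57 ± 0.11 (adjusted p = 1.57e-04). Tlr7 averaged 119 ± 52.7 normalized counts at 12 months (SD, n = 16) and 57.1 ± 14.1 at 5 months (SD, n = 12) in CA3. The kinase Tbk1 rose by 0.26 ± 0.04, and Mavs, the mitochondrial adaptor of the cytoplasmic RNA sensors, fell by 0.12 on the log2 scale with an SE of 0.04.

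Of 42 further interferon-stimulated genes tested, 17 rose and 0 fell, beside 25.4% and 24.6% of all genes, with a median log2 change of 0.22. Without replicate 10 of the 12-month rats 16 rose and 0 fell, with a median of 0.15. Those with the smallest p were Eif2ak2, the RNA-activated kinase that stops translation, at 0.31 ± 0.05 (limma, adjusted p = 3.53e-05), Samd9 at 0.49 ± 0.08, Herc6, a ligase that attaches Isg15 in the mouse, at 0.36 ± 0.08, and Slfn2 at 0.49 ± 0.14. Of 12 genes of MHC class I presentation 4 rose and 0 fell, with a median of 0.19 and, without that rat, of 0.08. The 4 of 12 is near the 25.4% of all genes that rose. The 4 were the proteasome activators Psme1 and Psme2, at 0.39 ± 0.08 and 0.27 ± 0.11, the immunoproteasome subunit Psmb10, at 0.20 ± 0.07, and B2m, the invariant light chain, at 0.39 ± 0.09. The call of Psme2 was lost when any of 11 of the 28 rats was left out. B2m averaged 4029 ± 1349 normalized counts at 12 months (SD, n = 16) and 2948 ± 317 at 5 months (SD, n = 12) in CA3. That 12-month mean includes replicate 10 at 8720, beside a median of 3521 in the other 15 rats. Leaving out each rat in turn gave log2 changes of 0.32 to 0.41 for B2m, 0.34 to 0.42 for Psme1 and 0.38 to 0.54 for Slfn2.

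Of 15 negative regulators and genes of nucleic acid clearance, 4 rose and 5 fell, with a median log2 change of 0.04. Both counts are close to the 25.4% and 24.6% of all genes that rose and fell. Cul1, a scaffold of a ubiquitin ligase, rose by 0.26 ± 0.04 (limma, adjusted p = 1.78e-05) and Ptpn2, a phosphatase that acts on Jak1, by 0.42 ± 0.09. Trex1, the cytoplasmic exonuclease that removes stray DNA, fell by 0.23 on the log2 scale (SE 0.07), and Rnaseh2c, a subunit of the enzyme that removes ribonucleotides from DNA, fell by 0.20 (SE 0.05). Trex1 averaged 207 ± 44.3 normalized counts at 12 months (SD, n = 16) and 266 ± 57.5 at 5 months (SD, n = 12) in the DG.

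Whether the 9 genes moved together across rats was tested after centring each gene on the mean of its age and run, so that a shared age change does not count. Correlations were tested by permuting rats within age and run (100000 permutations, two-sided), with the p-values adjusted over the 108 pairs of the 3 subregions. With all 28 rats, 10 of 36 pairs passed in CA1, 10 in CA3 and 1 in DG tissue, all positive. The median Pearson r over the 36 pairs was 0.58 in CA1, 0.46 in CA3 and 0.20 in DG tissue. Between the 9 genes and all other genes tested the median r lay between 0.00 and 0.01. The 95th percentile of r with those other genes was 0.51 in CA1, 0.43 in CA3 and 0.42 in DG tissue. Above it lay 22, 20 and 3 of the 36 pairs in the same order.

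Most of this rested on 1 rat. Without replicate 10 of the 12-month rats, 1 pair passed in CA1, 0 in CA3 and 0 in DG tissue, and the median r was 0.19 in CA1, 0.23 in CA3 and 0.17 in DG tissue. The unadjusted permutation p was under 0.05 for 5, 5 and 3 of the 36 pairs in CA1, CA3 and the DG. Without that rat the 95th percentile of r with all other genes was 0.44, 0.38 and 0.43 in the same order. Only 4, 5 and 3 of the 36 pairs lay above it. Without the 2 rats farthest from the median of the x gene no pair passed in any subregion, with 5, 6 and 4 pairs at an unadjusted p under 0.05. By Spearman's rho, which uses ranks, 1 pair passed in CA1, 1 in CA3 and 0 in DG tissue, with median rho values of 0.30, 0.32 and 0.22. Spearman's counts without replicate 10 were 1, 0 and 0, with medians of 0.16, 0.22 and 0.19. Within the ages, the median r in CA1 was 0.68 at 12 months, replicate 10 included, and 0.03 at 5 months. Within the runs it was 0.63 in the first and 0.25 in the second in CA1, and 0.55 and 0.27 in CA3.

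The pair that passed with and without replicate 10 was Ifit2 with Mx2 in CA1. Its Pearson r was 0.81 (permutation test, adjusted p = 0.00540) and its Spearman rho 0.71 (permutation test, adjusted p = 0.0130) over 28 rats. Without replicate 10 of the 12-month rats r was 0.65 (permutation test, adjusted p = 0.0389), and without the 2 rats farthest from the median it was 0.60, when no pair passed. It was 0.86 within the first run and 0.62 within the second, and 0.90 at 12 months and 0.47 at 5 months. In CA3 Ifi44 and Usp18 had an r of 0.67 (permutation test, adjusted p = 0.00594) and a rho of 0.65 with all rats, and an r of 0.57 that did not pass without replicate 10 and 0.59 without the 2 farthest rats.

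Other pairs depended on the rat that stood apart. Mx1 and Usp18 in CA1 had an r of 0.77 with all 28 rats and 0.42 without it, and Mx1 and Mx2 0.75 and 0.37. In CA3 Mx1 and Bst2 had an r of 0.76 with it and 0.29 without it, and within the runs 0.88 in the first, which holds that rat, and 0.02 in the second. Ifit2 and Ifit3, which neighbour each other, had an r of 0.58 in CA1 with it and 0.52 without it. How reads that fit related genes such as Mx1 and Mx2, or Ifit2 and Ifit3, were assigned is not given in the sources used here. In the DG the pair that passed was Irf7 with Mx2, with an r of 0.49 over all rats and 0.45 without replicate 10, when it no longer passed.

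**Figure D3:**
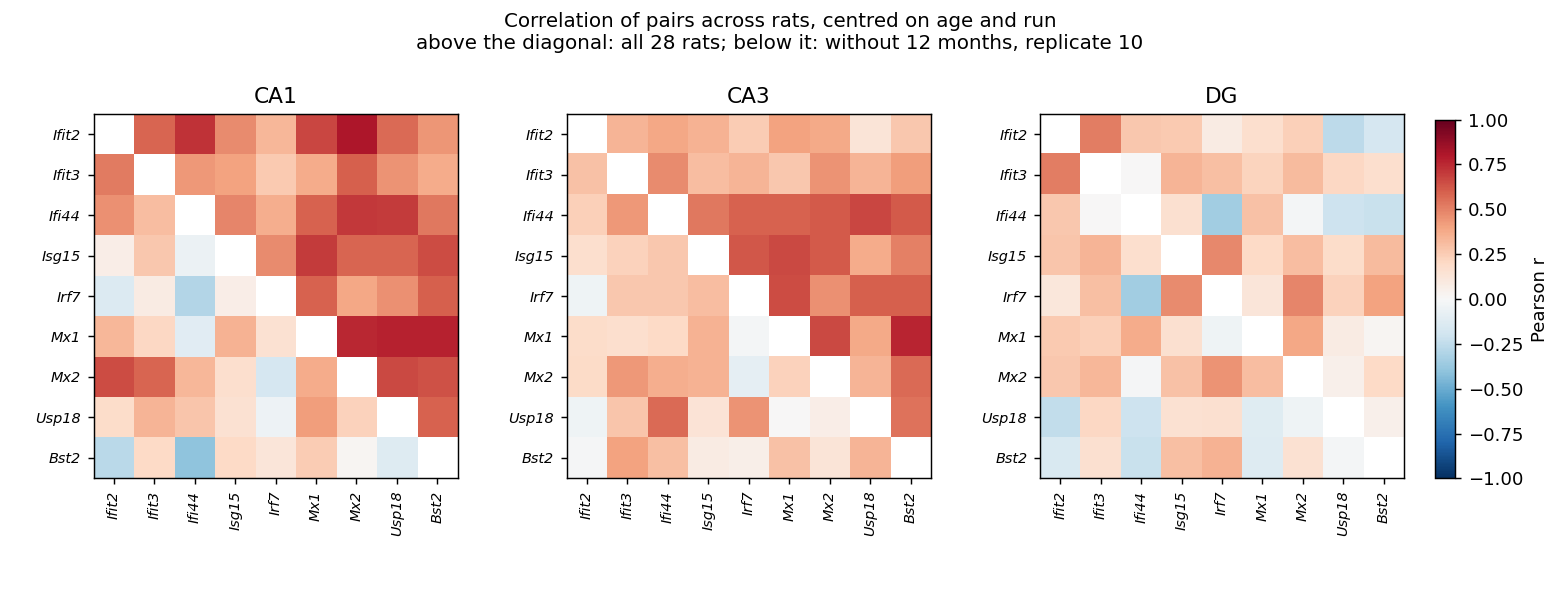
Pearson r of each pair of genes across rats in CA1, CA3 and the DG, after centring on age and run, with all 28 rats above the diagonal and without replicate 10 of the 12-month rats below it. The median r is 0.58 above and 0.19 below the diagonal in CA1, and 0.46 and 0.23 in CA3.

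The pattern can be seen rat by rat. Each gene was put on a z scale over the 28 rats of a subregion and averaged over the 9 genes, which is given here as a description. Replicate 10 of the 12-month rats had a mean z of 3.20 in CA1, 2.73 in CA3 and 0.94 in DG tissue, with 9, 9 and 8 of the 9 genes above the mean of all rats. The next highest rat in CA1, replicate 15 of the 12-month rats, had 1.18, with 8 of 9 genes above the mean. That second rat had 0.26 in CA3 and 0.80 in the DG.

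**Figure D4:**
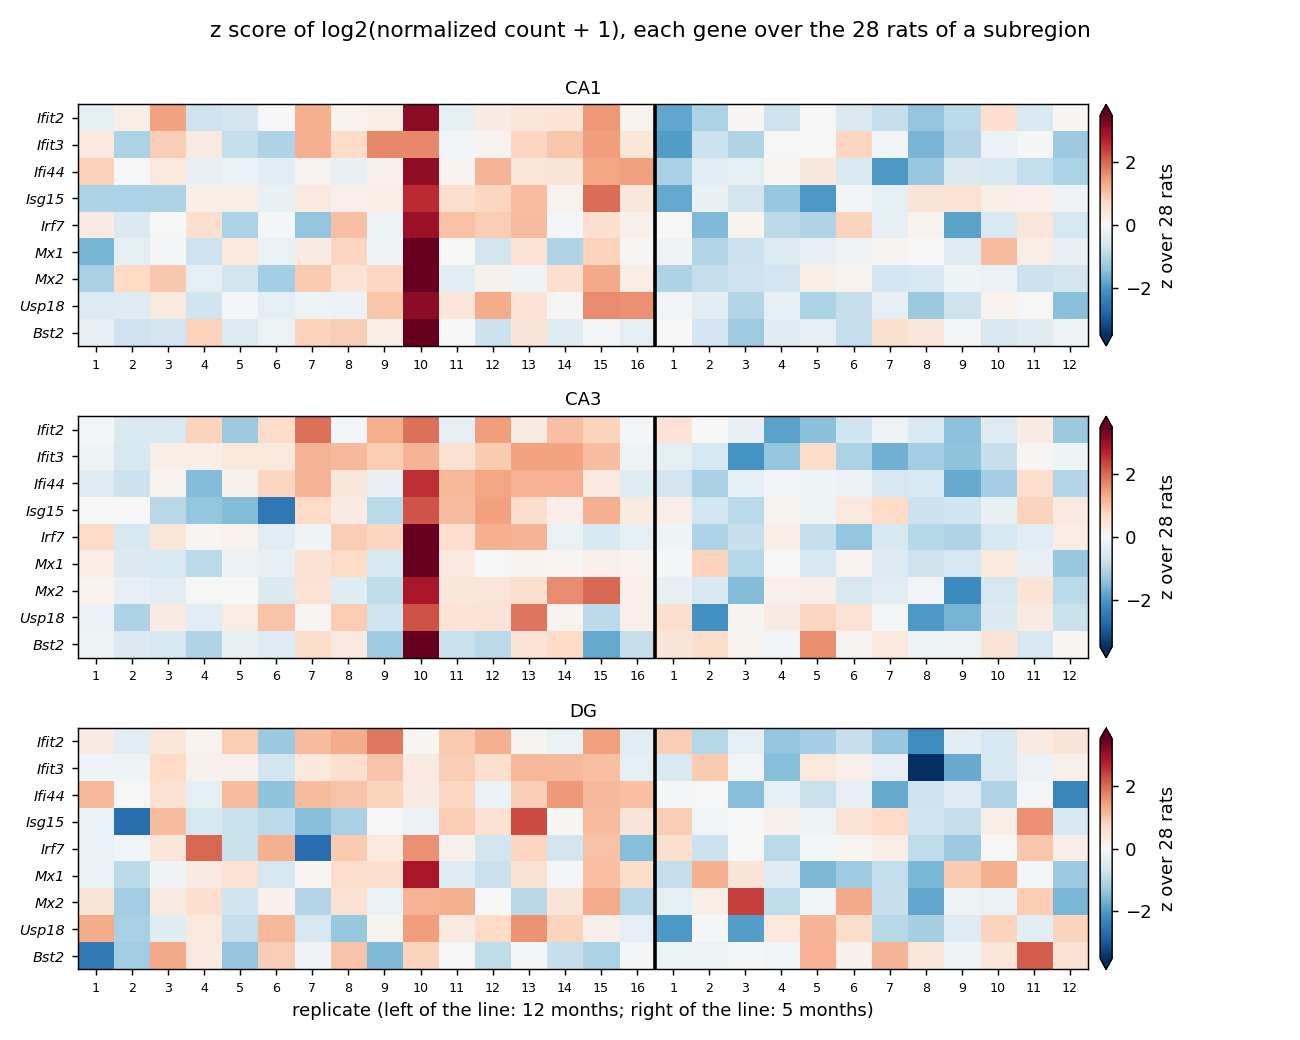
z score of log2(normalized count + 1) of each gene over the 28 rats of CA1, CA3 and the DG, with the 16 rats of 12 months left of the line and the 12 rats of 5 months right of it. Colours beyond 3.5 are drawn at 3.5, and the column of replicate 10 at 12 months is red for all 9 genes in CA1 and CA3.

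The same gene was also compared between subregions of the same rat, 27 comparisons in all. With all 28 rats 4 passed (permutation test, adjusted over the 27): Irf7 between the DG and CA1 with an r of 0.67, Mx1 between the DG and CA3 with 0.63, Irf7 between CA1 and CA3 with 0.63, and Mx1 between CA1 and CA3 with 0.79. Without replicate 10 of the 12-month rats 1 passed, Irf7 between the DG and CA1, with an r of 0.67 (permutation test, adjusted p = 0.00432). Its rho with all rats was 0.65, r was 0.64 without the 2 farthest rats, and r was 0.70 within the first run and 0.59 within the second. Mx1 had r values of 0.30 between CA1 and CA3 and 0.38 between the DG and CA3 without replicate 10. Ifit3 did not pass after adjustment but kept its r without that rat, at 0.42 with it and 0.43 without it between the DG and CA1, and at 0.47 and 0.48 between the DG and CA3, where its Spearman rho of 0.58 passed with all rats (permutation test, adjusted p = 0.0343).

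The genes outside the 9 whose pattern was most alike were ranked by the mean over the 3 subregions of their Pearson r with the mean z of the 9, over 28 rats and 14282 genes. Every gene, the 9 included, was first centred on age and run here, unlike in the mean z given rat by rat above. The ranking is a description of these rats, which share the library that stands apart. Parp14, an interferon-induced ADP-ribosyltransferase, ranked first with a mean r of 0.82, and it ranked first without replicate 10 of the 12-month rats too, with 0.59. Next came Gbp2, an interferon-induced GTPase, at 0.77, Aif1, a microglial marker, at 0.76, Tlr3 and Slfn2 at 0.75, Oasl2, B2m and Anxa3 at 0.74, and Adgre1, a macrophage and microglia marker, and Tmem176a at 0.73. Without replicate 10 the mean r was 0.50 for Gbp2 at rank 17, 0.45 for Aif1 at rank 48, 0.51 for Tlr3 at rank 11 and 0.35 for Slfn2 at rank 265. The genes at ranks 2 to 6 without that rat were Gstp1, Pde8a, Pls1, Cdh19 and Dock1, with a mean r between 0.52 and 0.55, and none of these is in the interferon or microglial lists. There was no break after rank 6, since Tlr3, of the list of sensors, had 0.51 at rank 11. Parp14 in CA1 averaged 196 ± 128 normalized counts at 12 months (SD, n = 16) and 145 ± 20.1 at 5 months (SD, n = 12), and replicate 10 of the 12-month rats held 668.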

How the data were processed

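RNA was sequenced from CA1, CA3 and the DG of 28 rats. Per the submitters' processing notes, the tools were Partek, STAR 2.5.3a and DESeq2, and the build was rn6. The authors deposited a signal, which the values show to be gene counts divided by 1 factor per library, in 1 table per subregion scaled on its own. In each library 100% of values up to 1000 reads lay within 0.1 of a whole multiple of the library's smallest step, so whole reads were recovered, and no 2 libraries were duplicates. In CA3, 1 column headed by an animal number alone was given to that animal's CA3 library. Genes at 10 or more in at least 12 of 28 libraries were tested with limma 3.58.1 (trend, two-sided) in R 4.3.3 on log2(value + 1), with Benjamini-Hochberg adjustment and a threshold of 0.05. The tests were checked on simulated data. Alternatives included DESeq2 1.42.0 and edgeR 4.0.16 fitted to the recovered reads, and 2 of them, which leave out replicate 10 of the 12-month rats within the first run and within edgeR, were added after seeing the data. Correlations used numpy 2.4.6. Libraries of the same rat were paired by the animal number in the titles, and their correlation in the fit over all libraries was 0.0949. The sources used here do not give strand, gene annotation or the treatment of reads with several hits. Named genes are the 9, the 4 genes of each pathway list with the smallest p in the mean over subregions, the 10 most alike, and list genes named for a fact about them, such as having no row. Of these, 1 gene is not reported here. The members and lists were chosen with earlier results of these data known.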

Additional observations from a re-analysis of the deposited data

Results flagged for a closer look

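The age change differed between subregions for 3 genes of the wider interferon pathway and for 1 microglial marker, each named because it passed the test of that difference in limma, after its values were seen. The search ran over all pathway and marker lists. Of all genes tested, 0.607% passed for the DG minus CA1 and 2.73% for the DG minus CA3. For the DG minus CA1 1 of 11 receptor genes passed. For the DG minus CA3 1 of 11 receptor genes, 1 of 15 sensors and 1 of 13 microglial markers passed. None of 42 further interferon-stimulated genes, 15 regulators and 12 class I genes passed there. So few calls are not read as a trait of the lists. Ifngr2, a chain of the interferon gamma receptor, had a log2 change of -0.11 in the DG and 0.23 in CA1, a difference of -0.34 ± 0.08 (limma, adjusted p = 0.0379). Ifngr1, the other chain, had -0.03 in the DG and 0.24 in CA3, a difference of -0.27 ± 0.07 (limma, adjusted p = 0.0379). Irf5, a transcription factor that acts after Toll-like receptors, had -0.29 in the DG and 0.11 in CA3, a difference of -0.40 ± 0.11 (limma, adjusted p = 0.0406). Tmem119, a marker of resident microglia, had -0.02 in the DG and 0.37 in CA3, a difference of -0.39 ± 0.10 (limma, adjusted p = 0.0323). In all 4 the change was lower in the DG than in the subregion it was compared with.
Without replicate 10 of the 12-month rats, 0 of the 15 sensors and interferon-inducing factors, Irf5 among them, passed for the DG minus CA3. The receptor list then had 1 lower call in each of the 2 differences, and the microglial markers 1 for the DG minus CA3, as with all rats.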

How the results depend on the processing

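Of the counts of called genes or correlated pairs, 263 of 308 kept their side of 1.5 times the reported count when a rat was left out and 98 of 133 under the other alternatives, and of the changes of single genes 1525 of 1568 and 661 of 767 kept direction and call. With a rat left out, every count that moved was one of correlations: 6 of 28 in CA1, 6 in CA3, 17 in the DG and 16 between subregions. The counts of called genes all kept their side, those of the differences between subregions at 0 throughout. The first run alone called 0 of the 9 genes in CA1, 1 in CA3, 0 in the DG and 1 in the mean over subregions, and without replicate 10 of the 12-month rats, chosen after seeing the data, 0, 0, 0 and 1. The second run alone called 3 in CA3, and DESeq2 called 7 in CA1. Except for the mean over subregions in each run, the share of all genes called in these fits is not given here. Leaving out each rat gave 4 to 6 calls in CA1, 4 to 5 in CA3, 3 to 4 in the DG and 6 in the mean over subregions. With the rat as a random block over all libraries 6 genes were called in the mean over subregions, and the fits of the differences with no replicate block called 0, 0 and 0, so the pairing changed no count.
In the first run the log2 change was -0.12 for Isg15 in CA3, -0.08 for Mx2 in the DG and 0.09 for Bst2 in the mean over subregions, each opposite in sign to the pooled value. Without replicate 10 in that run, it was -0.26 for Isg15, -0.04 for Mx1 and 0.00 for Usp18 in CA3, -0.11 for Mx2 in the DG and -0.08 for Isg15 in the mean over subregions. In the second run it was -0.24 for Mx1 and -0.09 for Bst2 in CA1, and 0.41 for Isg15 and -0.01 for Irf7 in the DG. Isg15 in CA3 was at -0.02 with array weights and between 0.00 (without replicate 10 of the 12-month rats) and 0.16 when each rat was left out. The cause was not tested.
Correlated pairs in CA1 numbered 16 when centred on age alone, 32 not centred, 5 at 12 months alone, 0 at 5 months alone, 1 within the first run and 0 within the second. In CA3 they numbered 24 not centred, 0 at 5 months, 1 within the first run and 0 within the second. In the DG they numbered 3 centred on age alone, 5 not centred, and 0 at 5 months and in either run. Without the 2 farthest rats they were 0 in each subregion. Between subregions, 7 passed with a pseudocount of 5, 1 with TMM, 17 not centred, 0 at 5 months and in either run, and 1 without the 2 farthest rats. Leaving out each rat gave 1 to 15 pairs in CA1, 0 to 14 in CA3, 0 to 2 in the DG and 0 to 6 between subregions. Low counts limit Mx1 in CA1 and Ifit3 in the DG, which reached 10 normalized counts in 23 and 25 of 28 libraries.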
